A study of Mus musculus with 6 samples.

Results

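Immune checkpoint ligands, receptors and *Ido1*, 10 genes in all, were followed in bulk RNA sequencing of MCA205 tumors, a transplantable mouse fibrosarcoma line grown under the skin. The genes were the ligands *Cd274* and *Pdcd1lg2*, the inhibitory receptors *Pdcd1*, *Ctla4*, *Lag3*, *Havcr2* and *Tigit*, the costimulatory receptors *Icos* and *Tnfrsf9*, and the enzyme *Ido1*. They were taken by name from a table of 54309 gene identifiers, with no threshold on the measured values. All 10 passed the minimum for testing, a mean of 10 normalized counts, which 13963 genes reached. The tumors came from female C57BL/6J mice that were 7 weeks old at inoculation (day 0) and were collected on day 8. Drinking water was plain MilliQ water in the Control group (3 tumors) and held FF-10101 at 0.1 mg/mL from day 1 in the FF-10101 group (3 tumors). FF-10101 is an oral covalent inhibitor of the receptor tyrosine kinases FLT3 and CSF1R, the latter the receptor through which macrophages receive M-CSF. The comparison asks what the inhibitor did to the tumor tissue as a whole, since each value sums tumor cells, immune cells and stroma. The model is 1 cell line in 1 mouse strain at 1 time point.

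Checkpoints are pairs of ligand and receptor that set how strongly a T cell responds. PD-L1 and PD-L2 on macrophages, dendritic cells and tumor cells engage PD-1 on T cells and dampen signaling through the antigen receptor, and interferon-γ is a known inducer of both ligands and of the tryptophan-degrading enzyme IDO1. The receptors are themselves induced when T cells are activated and stay high on T cells under chronic stimulation, so their transcripts in whole tumor mark both the presence and the state of T cells.

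Between 9143806 and 13258258 reads were recovered per tumor. The fibroblast and tumor stroma markers summed to 32450 to 107314 normalized counts in the Control tumors and 58339 to 125972 in the FF-10101 tumors, and none of the 5 (*Col1a1*, *Col1a2*, *Pdgfra*, *Pdgfrb* and *Thy1*) was at 0 in any tumor. Over all genes, limma called 6 of 13963 genes at an adjusted p of 0.05 (0.0430%), 4 higher and 2 lower in FF-10101, and 16.3% had an unadjusted p under 0.05. Control tumor 1 stood apart from the other Control tumors: without it 3051 genes were called, 12.0% of those tested higher and 9.88% lower in FF-10101. FF-10101 tumor 1 held keratinocyte transcripts (*Krt5*, *Krt14*, *Krt10* and *Dsp*) at a summed 987 normalized counts, against 19.6 to 159 in the other tumors, some of which had *Krt5*, *Krt14* or *Dsp* at 0, and the part of these transcripts in the results was not tested.

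None of the 10 checkpoint genes passed the test between the groups in all 6 tumors. By limma 0 of 10 had an adjusted p under 0.05. An unadjusted p under 0.05 was found for 3 of 10 (*Cd274*, *Pdcd1lg2* and *Ido1*), against 16.3% of all genes. Limma-voom on the recovered reads also called 0. In bulk tissue, more or fewer cells of a type and more or less RNA per cell cannot be told apart. The log2 fold change was above 0 for 10 of 10 genes, against 51.9% of all genes tested, and its median was 0.73 against 0.02. Leaving out Control tumor 2, Control tumor 3 or FF-10101 tumor 3 turned the value of *Ctla4* below 0, and leaving out Control tumor 3 did so for *Lag3*. Without Control tumor 1, 7 of 10 genes were called higher in FF-10101 (*Cd274*, *Pdcd1lg2*, *Lag3*, *Havcr2*, *Tigit*, *Icos* and *Ido1*), where 12.0% of all genes were. With 1 weight per tumor, from 0.139 for Control tumor 1 to 8.08 for FF-10101 tumor 2, limma called 10 of 10 genes higher, as it did 32.0% of all genes. As the plot of normalized counts by tumor shows, Control tumor 1 was the highest Control tumor for 10 of 10 genes (44.6% of all genes), and it lay at or above the lowest FF-10101 tumor for 9 of 10 (70.4% of all genes).

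**Figure D1:**
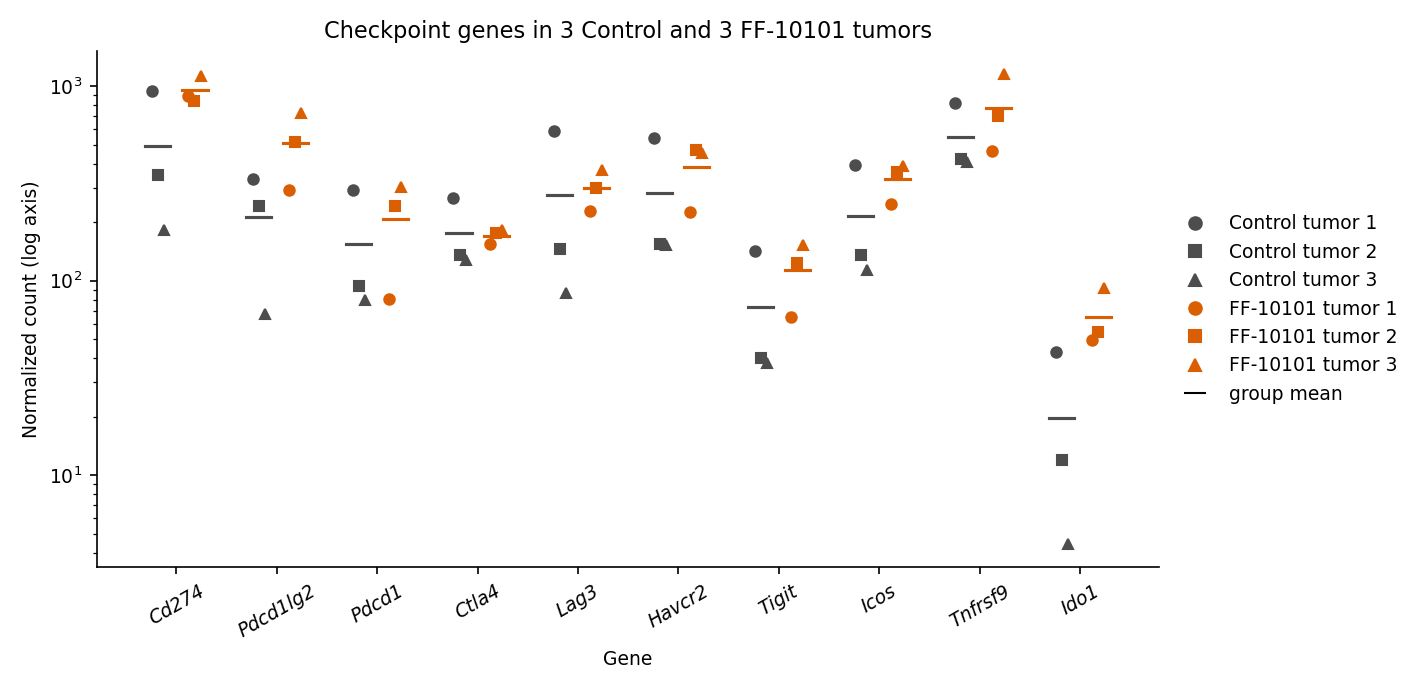
Normalized count of each checkpoint gene on a log axis, 1 point per tumor (grey, Control; orange, FF-10101; shapes give the tumor number) with a line at the group mean. For every gene except *Ido1* the circle of Control tumor 1 lies inside or above the FF-10101 points, while the Control square and triangle lie below all orange points except for *Pdcd1*.

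The ligands held the largest differences after *Ido1*. *Cd274* (ENSMUSG00000016496) encodes PD-L1. Its normalized counts were 942, 351 and 182 in Control tumors 1, 2 and 3 and 889, 838 and 1129.8 in FF-10101 tumors 1, 2 and 3. The FF-10101 tumors lay close together, with the highest 1.35 times the lowest, whereas the Control tumors spanned 5.18-fold and tumor 1 sat among the treated tumors. Group means were 492 ± 399 and 952 ± 156 (SD, n = 3 each). This gave a log2 fold change of 1.27 (SE 0.51, 95% interval 0.08 to 2.46) with an adjusted p of 0.293. The groups overlapped (exact permutation test, two-sided p = 0.3, where 3 against 3 cannot give less than 0.1). Without Control tumor 1 the log2 fold change was 1.90 (SE 0.27, adjusted p = 0.00415), and without Control tumor 3 it was 0.71 (SE 0.40, adjusted p = 0.675).

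*Pdcd1lg2* (ENSMUSG00000016498) encodes PD-L2, the second ligand of PD-1, and its gene is the immediate neighbor of *Cd274* on chromosome 19. It had 332, 241 and 67.7 normalized counts in the Control tumors and 294, 515 and 729 in the FF-10101 tumors. Control tumor 1 was above FF-10101 tumor 1 and below the other treated tumors, and Control tumor 3 was the lowest by far. The log2 fold change was 1.44 (SE 0.58, 95% interval 0.09 to 2.79, adjusted p = 0.291; exact permutation test, two-sided p = 0.2), 1.90 (SE 0.53, adjusted p = 0.0388) without Control tumor 1 and 0.76 (SE 0.38, adjusted p = 0.640) without Control tumor 3. The log2 ratio of *Pdcd1lg2* to *Cd274* was −1.15 ± 0.53 in Control and −0.98 ± 0.54 in FF-10101 (SD, n = 3 each), so the balance of the 2 ligands differed by 0.18 (exact permutation test, two-sided p = 1).

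The stretches before the start sites of the neighboring ligand genes are shown because these genes had the largest differences among the ligands and receptors. They are the 250 bases upstream of each RefSeq start (GRCm38.p6, plus strand), at chr19:29367188-29367437 for *Cd274* and chr19:29410669-29410918 for *Pdcd1lg2*. Each was searched on both strands for an interferon regulatory factor pattern (GAAA, then NN, then GAAA, in 2.98% of 32851 promoter windows of this length) and an AP-1 pattern (TGANTCA, 6.75%). Neither window held these letters.
Cd274: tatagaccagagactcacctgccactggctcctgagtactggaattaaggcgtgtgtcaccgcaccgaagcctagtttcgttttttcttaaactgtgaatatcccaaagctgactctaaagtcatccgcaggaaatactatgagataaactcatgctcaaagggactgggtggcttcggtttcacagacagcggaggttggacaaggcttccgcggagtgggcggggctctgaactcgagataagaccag
Pdcd1lg2: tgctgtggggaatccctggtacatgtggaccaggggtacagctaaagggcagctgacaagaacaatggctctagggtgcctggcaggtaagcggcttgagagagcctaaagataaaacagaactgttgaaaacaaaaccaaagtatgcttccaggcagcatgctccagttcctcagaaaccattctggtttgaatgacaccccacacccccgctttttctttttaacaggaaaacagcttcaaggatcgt

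PD-1, the receptor of both ligands, is encoded by *Pdcd1* (ENSMUSG00000026285) and is carried by activated and chronically stimulated T cells. Its normalized counts were 293, 93.5 and 79.9 in the Control tumors and 81.0, 243 and 302 in the FF-10101 tumors. It was the sole gene of the 10 whose lowest FF-10101 tumor fell among Control tumors 2 and 3. FF-10101 against Control gave 0.48 on the log2 scale (SE 0.61, 95% interval −0.94 to 1.90, adjusted p = 0.717), and 1.06 (SE 0.50, adjusted p = 0.161) without Control tumor 1. The log2 ratio of *Cd274* to *Pdcd1* was 1.68, 1.90 and 1.18 in the Control tumors and 3.44, 1.78 and 1.90 in the FF-10101 tumors. FF-10101 tumor 1 held the most ligand transcript per receptor transcript, and the other treated tumors were close to Control tumors 1 and 2 (difference 0.79, exact permutation test, two-sided p = 0.2). The groups separated without Control tumor 2 (0.94, as did 3.17% of all genes relative to *Pdcd1*) or FF-10101 tumor 2 (1.08, 2.97%). The difference was only 0.25 when FF-10101 tumor 1 was left out. The ratio of *Pdcd1lg2* to *Pdcd1* overlapped too (difference 0.96, exact permutation test, two-sided p = 0.3). It stood higher with no overlap without Control tumor 2 alone (1.43, where 3.17% of all genes did).

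*Ctla4* (ENSMUSG00000026011) encodes the inhibitory receptor that competes with CD28 for CD80 and CD86 and is carried at high level by regulatory T cells. It had 267, 136 and 128 normalized counts in the Control tumors and 154, 176 and 181 in the FF-10101 tumors. Control tumor 1 was above every treated tumor, and the treated tumors differed by a factor of 1.18 at most. *Ctla4* had the smallest difference of the 10 genes, a log2 fold change of 0.03 (SE 0.30, 95% interval −0.66 to 0.72, adjusted p = 0.970), while its group mean was 177 ± 78.1 in Control and 170.5 ± 14.3 in FF-10101 (SD, n = 3 each). It was 0.37 once Control tumor 1 was left out (SE 0.18, adjusted p = 0.184). The 3 regulatory T cell markers (*Foxp3*, *Il2ra* and *Ikzf2*) summed to 552, 298 and 302 in the Control tumors and 316, 530 and 428 in the FF-10101 tumors, and 0 of 3 passed the test.

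*Lag3* (ENSMUSG00000030124), next to *Cd4* on chromosome 6, encodes a receptor for MHC class II and had the widest Control spread among the receptors. It had 592, 146 and 86.5 normalized counts in the Control tumors and 228, 299.6 and 369 in the FF-10101 tumors. Control tumor 1 held 5.10 times the mean of the other Control tumors and was above all treated tumors, which in turn were all above Control tumors 2 and 3. The groups differed by 0.58 on the log2 scale (SE 0.62, 95% interval −0.86 to 2.02, adjusted p = 0.660). Among the other 5 tumors it was 1.38 (SE 0.28, adjusted p = 0.0138).

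*Havcr2* (ENSMUSG00000020399) encodes TIM-3, which is carried by exhausted T cells and also by macrophages and dendritic cells. It had 541, 154 and 153 normalized counts in the Control tumors and 226, 470.1 and 454 in the FF-10101 tumors. *Tigit* (ENSMUSG00000071552) encodes a receptor of T and NK cells that binds PVR and nectin-2. It had 143, 40.2 and 37.7 normalized counts in the Control tumors and 64.9, 123 and 153 in the FF-10101 tumors. For both genes FF-10101 tumor 1 lay between the other treated tumors and Control tumors 2 and 3. Log2 fold changes were 0.64 for *Havcr2* (SE 0.52, 95% interval −0.55 to 1.83, adjusted p = 0.558) and 0.82 for *Tigit* (SE 0.55, 95% interval −0.46 to 2.09, adjusted p = 0.484). Without Control tumor 1 these were 1.24 (SE 0.31, adjusted p = 0.0271) and 1.43 (SE 0.37, adjusted p = 0.0290).

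The costimulatory receptors deliver positive signals to activated T cells. *Icos* (ENSMUSG00000026009), next to *Ctla4* on chromosome 1, had 394, 136 and 113 normalized counts in the Control tumors and 248, 364 and 390.2 in the FF-10101 tumors. Control tumor 1 was above all treated tumors by a small margin, and the treated tumors were all well above Control tumors 2 and 3. Its log2 fold change of 0.84 (SE 0.45, 95% interval −0.20 to 1.88, adjusted p = 0.381) was the largest among the 7 receptors in all 6 tumors, and it was 1.40 (SE 0.23, adjusted p = 0.00666) without Control tumor 1. *Tnfrsf9* (ENSMUSG00000028965) encodes 4-1BB, a TNF receptor family member on activated CD8 T cells and NK cells. It had 823, 422 and 406 normalized counts in the Control tumors and 464, 706 and 1153 in the FF-10101 tumors. Here the treated tumors spread 2.48-fold, more than the 2.03-fold of the Control tumors. On the log2 scale the groups differed by 0.47 (SE 0.38, 95% interval −0.41 to 1.35, adjusted p = 0.554), and 0.80 (SE 0.33, adjusted p = 0.114) without Control tumor 1.

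Among the 8 upstream windows that RefSeq gave for 7 of the 10 genes, *Tnfrsf9* and *Havcr2* held matches to the patterns above, and their sequences are shown for these sites, with the matched letters in capitals. The *Tnfrsf9* window (one of its 2 start sites, chr4:150927749-150927998, plus strand, GRCm38.p6) held an AP-1 pattern at bases −15 to −9, counted back from the start site. The *Havcr2* window (chr11:46454681-46454930, plus strand) held an AP-1 pattern at −200 to −194. No match overlapped another, and a match is a description of the letters alone. The windows of *Pdcd1*, *Ctla4* and *Tigit* held neither pattern. *Lag3*, *Icos* and *Ido1* had no entry.
Tnfrsf9: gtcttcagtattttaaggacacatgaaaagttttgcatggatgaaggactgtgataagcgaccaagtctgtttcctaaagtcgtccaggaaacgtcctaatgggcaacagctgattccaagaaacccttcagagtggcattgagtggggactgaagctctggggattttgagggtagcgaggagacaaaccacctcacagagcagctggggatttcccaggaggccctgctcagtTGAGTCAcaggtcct
Havcr2: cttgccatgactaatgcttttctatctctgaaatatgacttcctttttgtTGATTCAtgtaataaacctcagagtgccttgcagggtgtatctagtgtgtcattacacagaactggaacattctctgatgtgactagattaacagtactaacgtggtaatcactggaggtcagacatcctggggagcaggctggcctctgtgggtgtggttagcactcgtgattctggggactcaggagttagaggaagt

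*Ido1* (ENSMUSG00000031551) encodes the interferon-inducible enzyme that starts tryptophan breakdown along the kynurenine pathway and lies next to its paralog *Ido2* on chromosome 8. It was the sole one of the 10 whose groups did not overlap. It had 42.8, 12.0 and 4.44 normalized counts in the Control tumors and 49.6, 54.3 and 91.6 in the FF-10101 tumors. The gap was narrow, between Control tumor 1 and FF-10101 tumor 1, and the values rest on 38, 11 and 4 reads against 65, 50 and 103. Group means were 19.7 ± 20.3 and 65.2 ± 23.0 (SD, n = 3 each), 3.30 times higher in FF-10101. Its log2 fold change was 2.13 (SE 0.72, 95% interval 0.47 to 3.79, adjusted p = 0.245), the exact permutation test gave its smallest two-sided p of 0.1, and the value without Control tumor 1 was 2.93 (SE 0.48, adjusted p = 0.00662). Of all genes tested, 10.9% had all FF-10101 tumors above all Control tumors and 9.37% had them all below, so 1 of 10 checkpoint genes without overlap is close to the background. With Control tumor 1 left out, 9 of 10 genes had every FF-10101 tumor above both remaining Control tumors, against 28.4% of all genes, with *Pdcd1* the exception.

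Leaving out Control tumor 1 gave the highest log2 fold change for 10 of 10 genes. Without Control tumor 3 the value was 1.42 for *Ido1*, 0.50 for *Icos*, 0.49 for *Tigit*, 0.33 for *Havcr2*, −0.0026 for *Lag3* and −0.16 for *Ctla4*. The lowest values of *Pdcd1* (0.11) and *Tnfrsf9* (0.14) came without FF-10101 tumor 3. No gene of the 10 was called with any tumor other than Control tumor 1 left out (limma, adjusted p of 0.265 or above).

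**Figure D2:**
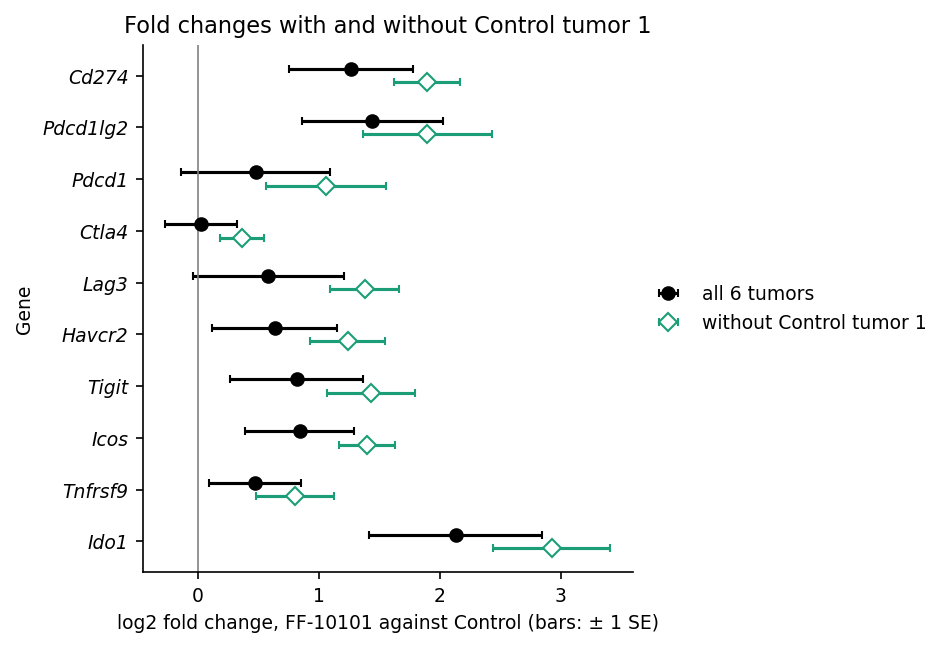
The log2 fold change of FF-10101 against Control for each checkpoint gene, with bars of 1 SE, in all 6 tumors (black circles) and without Control tumor 1 (open diamonds). Every diamond lies to the right of its circle, from 0.37 for *Ctla4* to 2.93 for *Ido1*.

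Per length of transcript, the order of the 10 genes was broad and mostly not resolved. Normalized counts were divided by the length in kilobases of the longest coding transcript. In the Control tumors *Tnfrsf9* was first at 260.1 ± 112 per kilobase and *Ido1* last at 11.9 ± 12.3 (SD, n = 3 each). The 8 genes between them overlapped their neighbors in the order, from *Lag3* at 137 ± 138 to *Icos* at 66.1 ± 48.1, and *Icos* did not overlap *Ido1*. In the FF-10101 tumors *Tnfrsf9* was again first at 366 ± 165. *Pdcd1lg2* (296 ± 126) and *Cd274* (263 ± 43.0) followed, and the range of *Cd274* did not overlap that of the next gene, *Lag3* at 149 ± 35.1. *Ctla4*, sixth in Control at 91.4 ± 40.4, was ninth in FF-10101 at 88.2 ± 7.40, above *Ido1* at 39.3 ± 13.9, with no overlap between these last 2.

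The receptors are carried mostly by T cells, and T cell transcripts were highest in Control tumor 1 and low to a like degree in Control tumors 2 and 3 and FF-10101 tumor 1. The 7 receptors were all lowest in Control tumor 3. The 9 T cell markers (*Cd3d*, *Cd3e*, *Cd3g*, *Cd247*, *Cd2*, *Cd5*, *Trac*, *Trbc1* and *Trbc2*) summed to 3103, 1384 and 1389 normalized counts in the Control tumors and 1370, 2588 and 2740.4 in the FF-10101 tumors, with 0 of 9 past the test and none at 0. The CD8 markers *Cd8a* and *Cd8b1* summed to 547, 111 and 95.4 against 246, 458 and 546. Each receptor was set against the mean log2 value of the 9 T cell markers in the same tumor, which was 8.31, 7.09 and 7.02 in the Control tumors and 7.07, 8.05 and 8.15 in the FF-10101 tumors (difference 0.28).

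*Tigit* and *Icos* were the receptors whose level relative to T cell transcripts did not overlap between the groups. Relative to these markers *Icos* was at 0.32, 0.01 and −0.19 in the Control tumors and 0.89, 0.46 and 0.47 in the FF-10101 tumors, on a log2 scale. The difference was 0.56, with the treated tumors all above the Control tumors (two-sided p = 0.1 in an exact permutation test, its lower limit). *Tigit* was at −1.14, −1.72 and −1.75 against −1.03, −1.10 and −0.88, a difference of 0.53 (exact permutation test, two-sided p = 0.1). The groups were separated by a small gap between Control tumor 1 and FF-10101 tumor 2, and under quantile normalization they overlapped (difference 0.43). These 2 of 7 receptors compare with 5.35% of all genes that stood above in the same measure. Both kept the separation with each tumor left out. The 5 NK markers summed to 968, 374 and 270 in the Control tumors and 637, 1065.0 and 1166 in the FF-10101 tumors, a difference of 0.90 in mean log2 value, and the 6 CD8 effector markers differed by 1.41. Both lists overlapped between the groups, with 0 markers past the test and none at 0, and their part in the values of *Tigit* and *Icos* was not tested.

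The other 5 receptors overlapped relative to T cell transcripts. The differences were 0.35 for *Havcr2*, 0.30 for *Lag3*, 0.20 for *Pdcd1*, 0.19 for *Tnfrsf9* and −0.25 for *Ctla4* (exact permutation tests, two-sided p between 0.3 and 0.7). In all 6 tumors *Ctla4* was the one receptor with a lower mean relative to T cells in FF-10101, at 0.20, −0.58 and −0.64 against −0.24, 0.01 and −0.02, and FF-10101 tumor 1 was its highest tumor. Without Control tumor 1 the groups of *Lag3* and *Havcr2* separated as well, with differences of 0.68 and 0.54, where 6.76% of all genes stood above. Without FF-10101 tumor 1 *Ctla4* stood lower with no overlap (−0.52, as did 20.2% of all genes), without FF-10101 tumor 2 *Tnfrsf9* stood higher with no overlap (0.35, as did 6.95%), and without Control tumor 3 the difference of *Lag3* was −0.06.

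Relative to macrophage transcripts, all 4 genes that macrophages can express stood higher in FF-10101. The reference was the mean log2 value of 7 markers (*Adgre1*, *Cd68*, *Csf1r*, *Fcgr1*, *Mertk*, *Itgam* and *Lyz2*), which summed to 62398, 43115 and 58680 normalized counts in Control and 20272, 35531 and 35458 in FF-10101. The sum was lower in every treated tumor and is mostly *Lyz2*. The mean log2 value, in which each marker counts alike, was 11.72, 11.04 and 10.94 against 10.33, 10.98 and 11.07, and overlapped. None of the 7 markers passed the test or was at 0, but 6 had a log2 fold change below 0. *Adgre1*, *Itgam* and *Lyz2* were lower in every treated tumor, as were 9.37% of all genes.

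Against this reference *Cd274* was at −1.84, −2.58 and −3.42 in the Control tumors and −0.53, −1.27 and −0.93 in the FF-10101 tumors, a difference of 1.70. *Pdcd1lg2* differed by 1.88, *Havcr2* by 1.07 and *Ido1* by 2.57. For these 4 of 4 genes the treated tumors were all above the Control tumors, tumor 1 included (two-sided p = 0.1 each in exact permutation tests). In the same measure 32.5% of all genes stood above, so a separation of this kind was common. The gap was narrowest for *Havcr2*, with Control tumor 1 at −2.64 and FF-10101 tumor 1 at −2.50.

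**Figure D3:**
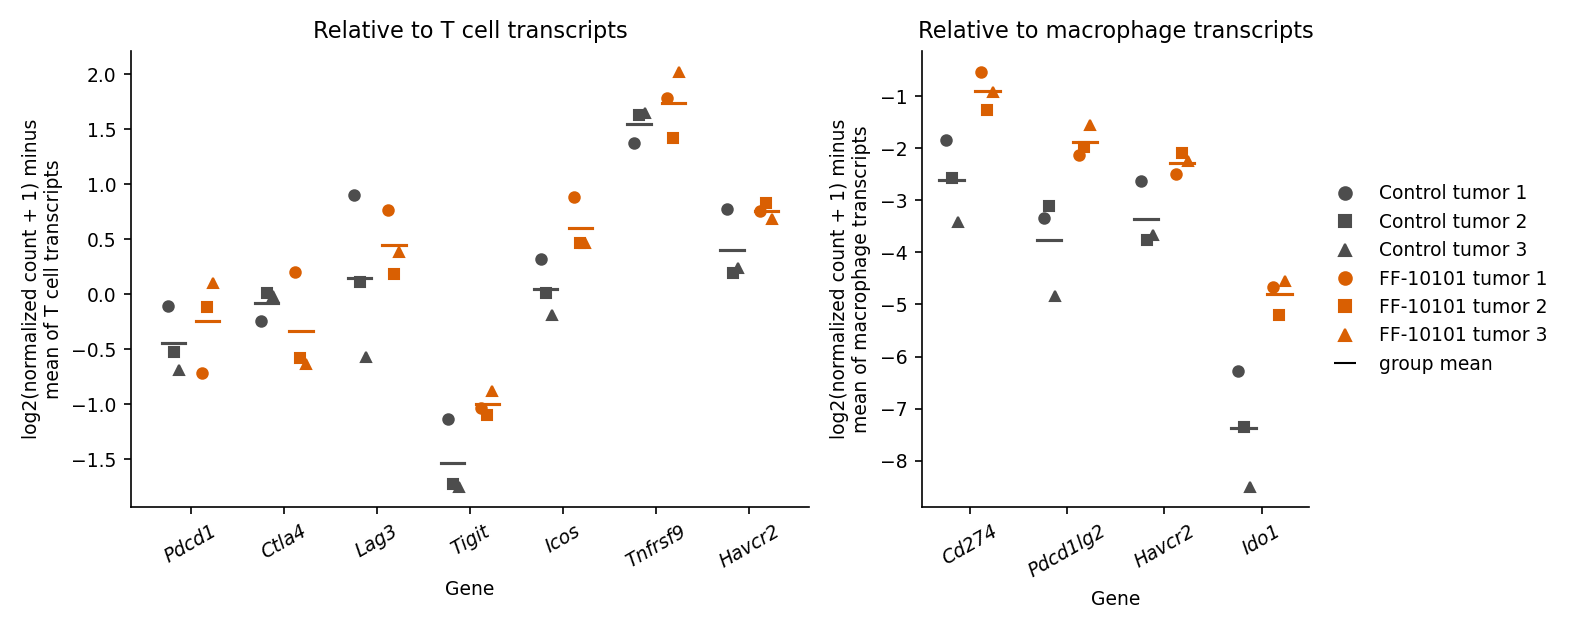
Log2 level of each receptor relative to the mean of 9 T cell markers (left) and of 4 genes relative to the mean of 7 macrophage markers (right), 1 point per tumor with a line at the group mean. *Tigit* and *Icos* separate on the left, and *Cd274*, *Pdcd1lg2*, *Havcr2* and *Ido1* all separate on the right.

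The balance within 14 pairs was compared, 10 of a ligand and its receptor and 4 of 2 ligands or 2 receptors, which were chosen after the values of the genes were known. In 4 of 14 the groups did not overlap, each with an exact permutation test at its smallest two-sided p of 0.1. These 4 kept the separation with each tumor left out, but they share *Ctla4* or *Icos* and are not separate results. Without Control tumor 1 the groups did not overlap in 10 of 14, and with another tumor left out in 4 to 6. Around *Ctla4*, the ratio of *Icos* to *Ctla4* was 0.56, 0.00 and −0.17 in the Control tumors and 0.68, 1.04 and 1.10 in the FF-10101 tumors (log2, difference 0.81). *Cd80* and *Cd86* encode the shared ligands of CTLA-4 and CD28. Their ratios to *Ctla4* were also higher in every treated tumor, by 0.76 and 0.67. Relative to *Ctla4*, 11.4% of all genes stood above in this way. *Cd28*, the activating receptor for the same ligands, overlapped relative to *Ctla4* (difference 0.72, exact permutation test, two-sided p = 0.2). It stood higher with no overlap without Control tumor 1 (0.96, as did 13.6% of all genes relative to *Ctla4*) and without FF-10101 tumor 1 (1.06, 16.1%).

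The ratio of *Icosl* to *Icos*, ligand to receptor, was lower in FF-10101. It was −0.83, 0.42 and 0.47 in the Control tumors and −1.10, −1.18 and −1.74 in the FF-10101 tumors, a difference of −1.36 with no overlap, and Control tumor 1 was again nearest to them. Relative to *Icos*, 7.21% of all genes stood below. *Icosl* itself had 222, 181 and 158 normalized counts in Control and 115, 159.6 and 116 in FF-10101, a log2 fold change of −0.52 (SE 0.23, adjusted p = 0.313). The ratio of *Tnfsf9*, which encodes the 4-1BB ligand, to *Tnfrsf9* was lower by 0.83 and overlapped (exact permutation test, two-sided p = 0.2), and it was lower with no overlap without Control tumor 1 (−1.15, as were 50.3% of all genes relative to *Tnfrsf9*) or FF-10101 tumor 1 (−1.16, 25.7%). *Tnfsf9* had 72.0, 60.9 and 81.0 normalized counts against 55.8, 54.3 and 55.1, all treated tumors below all Control tumors (log2 fold change −0.36, SE 0.24, adjusted p = 0.487).

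For *Tigit* the ligands *Pvr* and *Nectin2* were lower relative to the receptor by 0.45 and 0.44, and *Tigit* relative to *Cd226*, the activating receptor of the same ligands, was higher by 0.78. All 3 overlapped. Without Control tumor 1, *Pvr* to *Tigit* was lower with no overlap (−1.16, as were 81.3% of all genes relative to *Tigit*), *Tigit* to *Cd226* was higher with no overlap (1.33, 8.12% of all genes relative to *Cd226*) and *Nectin2* to *Tigit* still overlapped (−0.86). With another tumor left out these 3 overlapped, and the difference of *Pvr* to *Tigit* was as small as −0.05. *Cd226* itself differed by 0.04 (SE 0.57, adjusted p = 0.982), and that sign turned under quantile normalization and limma-voom. For *Havcr2* the ligands *Lgals9* and *Ceacam1* overlapped relative to the receptor, with differences of −0.25 and −0.34, and both were lower with no overlap without Control tumor 1 (−0.53 and −0.67, where 75.3% of all genes were). *Fgl1*, a ligand of LAG-3, had 0 to 3 reads in every tumor and was not tested.

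**Figure D4:**
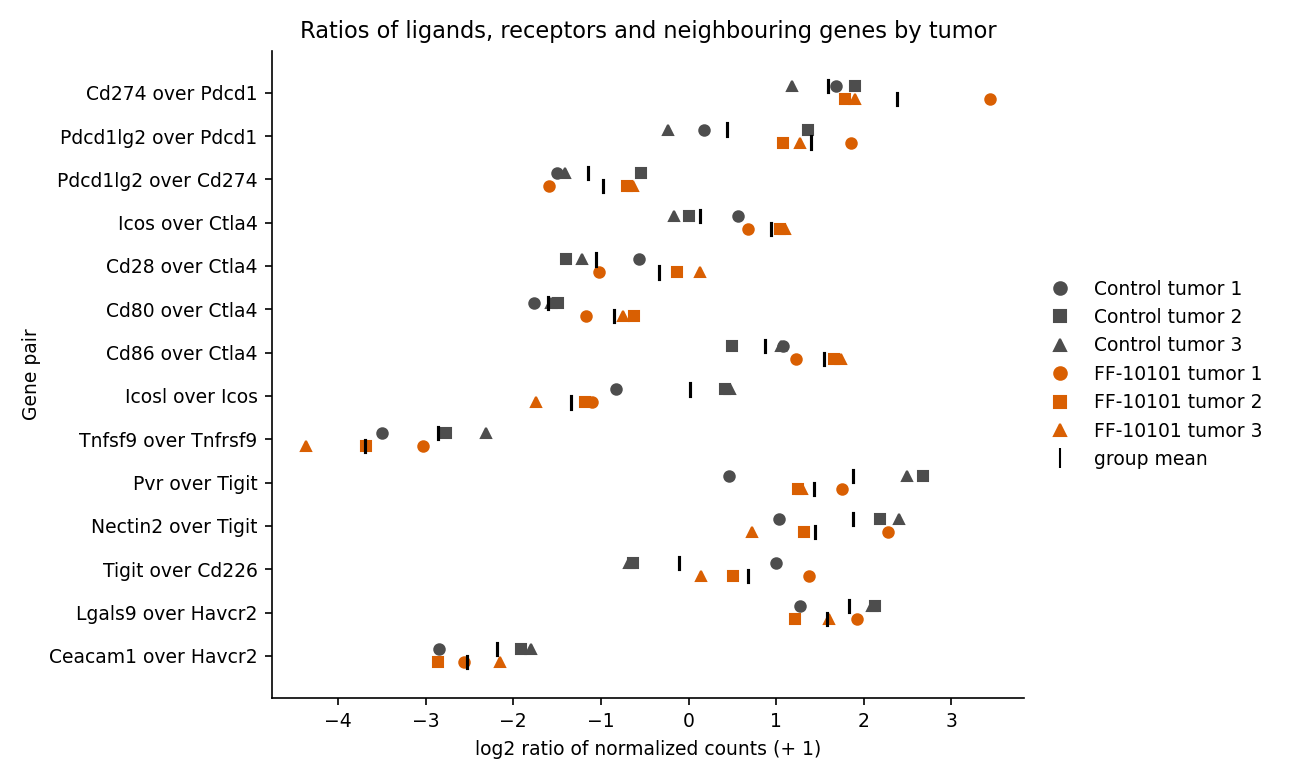
Log2 ratio of normalized counts within 14 pairs, 1 point per tumor (grey, Control; orange, FF-10101) with a line at the group mean. *Icos*, *Cd80* and *Cd86* over *Ctla4* lie to the right in all FF-10101 tumors, and *Icosl* over *Icos* lies to the left.

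Other genes of the checkpoint system and of tryptophan breakdown had a smaller median log2 fold change than the 10 genes. Of 42 such partner genes 35 were tested and 0 passed in either direction. An unadjusted p under 0.05 was found for 3 of 35, against 16.3% of all genes. The log2 fold change was above 0 for 28 and the median was 0.31. The largest values above 0 were 0.98 for *Cd200*, which encodes a ligand that restrains myeloid cells, 0.97 for *Kynu*, an enzyme downstream of IDO1, and 0.79 for *Cd80*. *Cd200* had 253, 109 and 115 normalized counts in Control and 263, 279 and 337 in FF-10101, and did not overlap (adjusted p = 0.245). The largest values below 0 were *Icosl*, *Cd200r1*, the receptor of CD200, at −0.42 (adjusted p = 0.570), and *Tnfsf9*. The groups did not overlap for 3 of 35, with *Cd276* and *Cd200* higher (10.9% of all genes were) and *Tnfsf9* lower (9.37%). With Control tumor 1 left out, 11 of 35 were called higher, among them *Cd80*, *Cd86*, *Cd28*, *Cd200*, *Kynu* and *Lgals9*, and 0 lower, against 12.0% and 9.88% of all genes.

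Interferon-γ and JAK-STAT signaling regulates *Cd274* and *Ido1*. Among 16 genes of this signaling and its targets, Control tumor 1 was the highest Control tumor for 15 (44.6% of all genes). None of the 16 passed the test in all 6 tumors, and 6 had an unadjusted p under 0.05 (16.3% of all genes did). The log2 fold change was above 0 for 15 and the median was 0.51. *Ifng*, which encodes interferon-γ, had 146, 25.0 and 11.1 normalized counts in the Control tumors and 132, 115 and 188 in the FF-10101 tumors. Control tumor 1 held 8.11 times the mean of the other Control tumors and lay among the treated ones (log2 fold change 1.99, SE 0.80, adjusted p = 0.290). *Stat2* differed by 1.06 (adjusted p = 0.238) and *Irf1*, a transcription factor that interferon-γ induces, by 0.77 (adjusted p = 0.263). *Ifngr2*, the signaling chain of the interferon-γ receptor, was the sole gene below 0, at −0.38 with all treated tumors below all Control tumors (adjusted p = 0.291). The groups of *Stat2* and of *Nlrc5*, which encodes an activator of MHC class I genes, did not overlap either and were higher in FF-10101. These 2 and 1 of 16 compare with 10.9% of all genes above and 9.37% below. With Control tumor 1 left out, 14 of 16 were called higher (12.0% of all genes were) and *Ifngr2* lower (9.88%).

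Regulators of T cell exhaustion and activation had a median in the same range. Of 16 genes 13 were tested and 0 passed, and 1 had an unadjusted p under 0.05 (16.3% of all genes did). The log2 fold change was above 0 for 12 and the median was 0.40. The leading values were 1.08 for *Eomes* (adjusted p = 0.300), 0.95 for *Tox* (adjusted p = 0.625) and 0.74 for *Irf4* (adjusted p = 0.418), transcription factors of effector and exhausted T cells. *Eomes* is also on the list of NK markers used above, so its value is not particular to T cells. *Tox* rested on 2.22 to 48.4 normalized counts, the highest in Control tumor 1. *Nfatc2* was the sole gene below 0, at −0.69 (adjusted p = 0.413). With Control tumor 1 left out, 6 of 13 were called higher, against 12.0% of all genes.

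**Figure D5:**
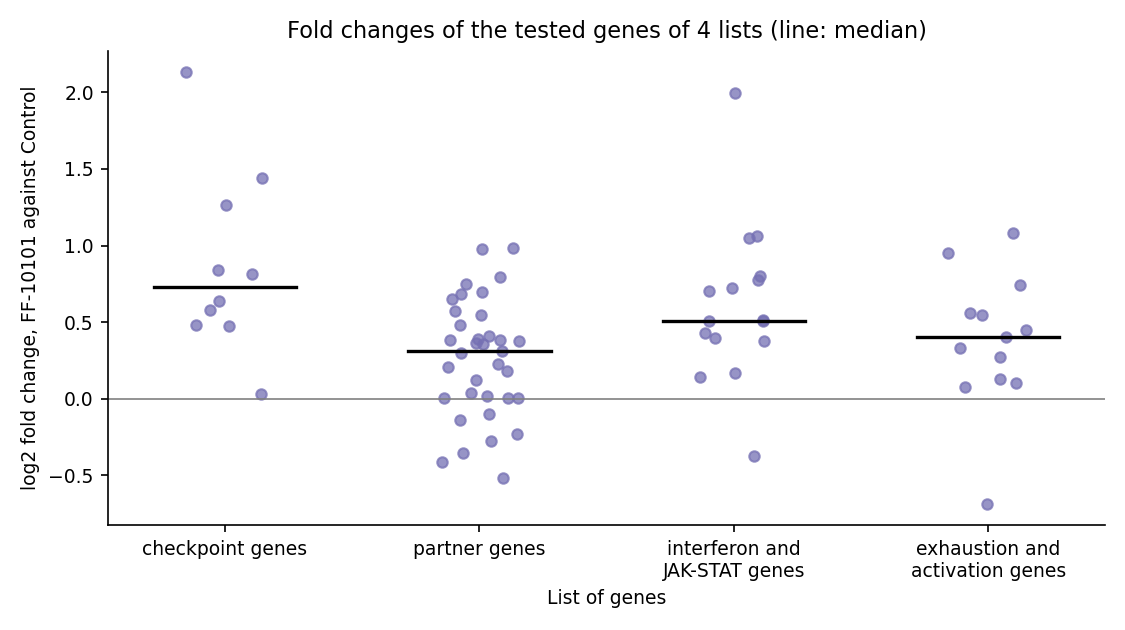
The log2 fold change of each tested gene of the 4 lists in all 6 tumors, with a line at the list median. The medians are 0.73 for the 10 checkpoint genes, 0.31 for 35 partner genes, 0.51 for 16 interferon and JAK-STAT genes and 0.40 for 13 exhaustion and activation genes.

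Within the 10 genes the order of the tumors was similar in part. Control tumor 1 ranged from the highest of all tumors (*Ctla4*, *Lag3*, *Havcr2* and *Icos*) to below every treated tumor (*Ido1*). FF-10101 tumor 1 was the lowest treated tumor for 9 of 10 genes (41.6% of all genes), with *Cd274* the exception, and FF-10101 tumor 3 the highest for all but *Havcr2*. Marker sums of other cell types also differed by tumor: endothelial markers (*Pecam1*, *Cdh5*, *Kdr* and *Emcn*) summed to 4150.3, 1680.0 and 1191 in Control and 4128, 4568 and 4784 in FF-10101, and neutrophil markers summed to 1122, 703 and 527 against 1307.5, 1579.6 and 1943. *Ly6g*, a defining neutrophil marker, was at 0 in 5 of 6 tumors. None of the 4 endothelial and 4 tested neutrophil markers passed the test, and their part in the checkpoint values was not tested.

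The genes whose pattern over the 6 tumors was most like that of each checkpoint gene were found by the root mean square difference of centered log2 values. *Cd274* was nearest to *Prkcq* (0.12), *Batf2* (0.14) and *Serpina3g* (0.15), and among the 10 to *Icos* (0.35). *Pdcd1lg2* was nearest to *Gzma* (0.22), and among the 10 to *Cd274* (0.44). *Pdcd1* was nearest to *Ky* (0.18) and *Cd3g* (0.21), *Havcr2* to *Cd3e* (0.10) and *Tigit* to *Klrk1* (0.08) and *Cd28* (0.09). *Havcr2* and *Tigit* were each other's nearest among the 10, at 0.14. *Lag3* was nearest to *Abcg1* (0.12) and *Icos* to *Csf2rb* (0.06). *Tnfrsf9* was nearest to *Add3* (0.09) and *Gbe1* (0.09), with *Tnfsf14* next at 0.11. *Ido1* was nearest to *C3* (0.17), *Apol7c* (0.22) and *Gbp6* (0.23), and *Ctla4* to *Arap1* (0.04). The measure describes 6 tumors, and Control tumor 1 weighs in every one of these values.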

How the data were processed

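Bulk RNA from 6 subcutaneous MCA205 tumors, 3 Control and 3 FF-10101 (biological replicates per the labels), was analyzed. Per the submitters' processing notes and the study's methods, the authors trimmed reads with fastp version 0.19.5, quantified them with Salmon version 1.5.1 on GENCODE vM27 and used DESeq2 version 1.22.1. The authors deposited 1 log2 value per gene and tumor. The analysis was planned for normalized counts, and the values turned out to be transformed on a log2 scale, so reads were recovered by inverting the variance-stabilizing transformation. All values (100%) came out whole within 0.01, and normalized counts are reads divided by the tumor's size factor. Salmon splits reads among similar transcripts by estimation, which makes genes with close copies less certain.

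Groups were compared with limma version 3.58.1 (R version 4.3.3; lmFit, eBayes with a trend) on log2(normalized count + 1), group as the sole term, and p-values were adjusted by Benjamini-Hochberg over all 13963 genes whose mean reached 10 normalized counts. Fold changes on this scale understate those of genes with few reads. A count of 0 allows up to 3 reads, 2.29 to 3.38 normalized counts by tumor, for counting error only. On simulated reads with known changes the steps recovered the direction of every changed gene called. Direction was checked among called genes only, so this check does not show how many changes the steps miss. Single values were compared by exact two-sided permutation tests over tumors.

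Symbols and transcript lengths came from GENCODE vM21, which named 51484 of 54309 identifiers. Promoter windows came from RefSeq on GRCm38.p6, another build than the authors used. The genes named are the 10 checkpoint genes, their direct counterparts, the 3 largest values in each direction of each other list, or those past the threshold, and the 3 genes most like each checkpoint gene. The values of 1 of these genes are left out here. Genes and lists were chosen with earlier results of these data known. *Cd276*, *Nlrc5* and the 14 pairs were named after their values were seen. Results were recomputed with each tumor left out, with the replicate number as a block, with limma-voom on the recovered reads, with array weights, without the trend and on the deposited log2 values. They were also recomputed with pseudocounts of 0.5 and 10, no minimum or a minimum mean of 50, quantile or 75th percentile scaling, and the median of a marker list in place of its mean.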

Additional observations from a re-analysis of the deposited data

How the results depend on the processing

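The number of genes called was 17 with no minimum count, 3 with a mean of at least 50, 8365 with array weights and 1 with the replicate number as a block, and it ran from 1 to 3051 when 1 tumor was left out (highest without Control tumor 1). Called checkpoint genes numbered 10 with array weights and 0 to 7 with 1 tumor left out, partner genes 23 and 0 to 11, interferon and JAK-STAT genes 16 and 0 to 15, and exhaustion and activation genes 11 and 0 to 6, each time with the highest number without Control tumor 1. No other setting called any of them, and the minimum of 50 left *Ido1* untested. Array weights rest mostly on Control tumor 2 and FF-10101 tumor 2, with weights of 5.39 and 8.08 against 0.139 to 0.859 for the others. Checkpoint genes without overlap numbered 1 to 9 over the tumors left out. Receptors without overlap relative to T cell transcripts numbered 1 under quantile normalization and 2 to 4 over the tumors left out, pairs without overlap numbered 4 to 10 over the tumors left out (chosen after seeing the data; highest without Control tumor 1), and the 4 genes set against macrophage transcripts kept their separation in each setting run. Directions turned for 4 named genes: with 1 tumor left out *Ctla4* ran from −0.16 to 0.37, *Lag3* from −0.0026 to 1.38, *Ceacam1* from −0.045 to 0.66 and *Cd226* from −0.49 to 0.74, and *Cd226* was −0.075 under quantile normalization and −0.040 with limma-voom. The cause of these shifts was not tested. The replicate numbers did not pair the tumors: deviations of same-numbered tumors correlated at −0.29, −0.04 and −0.28, and with the block 0 checkpoint genes were called.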
